A study of Mus musculus with 6 samples.

Results

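The serpins are a family of proteins that share one fold, and they were followed in mouse oocytes that had lost the NEDD8-activating gene Uba3. The members were all genes of the deposited expression table whose mouse symbol starts with Serpin, a clade letter from a to i and a digit, which gave 39 genes of the 28738 in the table. These are 39 of the 68 serpin symbols in the annotation used, and the other 29 were not analysed here. There were 3 libraries labelled Uba3 cKO, from a conditional knockout of Uba3, and 3 labelled Control. All were made from fully-grown GV oocytes, which still have an intact nucleus (the germinal vesicle) and are paused in the first meiotic prophase, of the strain labelled C57/Bl6/N;129SvEv7, and each library came from a pool of about 150 oocytes. The driver of the conditional deletion, the alleles that the controls carried and the age of the mice are not known from the labels. Whether each pool had its own donor mice is not stated, and the p-values thus cover the variation among the 6 pools and no more.

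Most serpins are suicide inhibitors of serine proteases. A flexible loop offers itself as bait, the protease cuts it, and the serpin then snaps into a more stable form that traps and distorts the enzyme. Some members block cysteine proteases instead, and a few inhibit nothing: SERPINH1, also called HSP47, is a collagen chaperone, and SERPINA6 and SERPINA7 carry hormones in blood. Clades A and C to I are mostly secreted, whereas clade B serpins lack a classical signal peptide and act mainly inside the cell, where they guard it against its own or incoming proteases. In the ovary serpins are best known from the plasminogen activator system. There SERPINE2, for one, restrains tissue-type and urokinase-type plasminogen activators in the follicle around ovulation. The protein made from Uba3 is needed to attach NEDD8, a small relative of ubiquitin, to its targets, chief among them the cullins on which many ubiquitin ligases are built.

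Every serpin that passed the test belonged to clade B. The promoters of the 3 called genes, and of Serpine2 as an abundant serpin with nearly equal means, are printed because they show how unlike the starts of these genes are. Sequences are from RefSeq on GRCm38.p6, an earlier build than the GRCm39 that the submitters' processing notes name. Each runs 5′ to 3′ on the gene's strand from 250 bases before a transcript start to 50 bases after it. Capitals mark matches, on either strand, to the TATA box letters TATAAA, the box with the letters CCAAT, the GC box letters GGGCGG, the AP-1 site letters TGACTCA or the homeobox core letters TAATTA. Overlapping matches were each counted. Which start the oocytes use was not tested. Serpinb8 lies at chr1:107589756-107590055 on the plus strand, Serpinb3a at chr1:107052254-107052553 on the minus strand, Serpinb9 at chr13:33004291-33004590 on the plus strand and Serpine2 at chr1:79858616-79858915 on the minus strand.
Serpinb8: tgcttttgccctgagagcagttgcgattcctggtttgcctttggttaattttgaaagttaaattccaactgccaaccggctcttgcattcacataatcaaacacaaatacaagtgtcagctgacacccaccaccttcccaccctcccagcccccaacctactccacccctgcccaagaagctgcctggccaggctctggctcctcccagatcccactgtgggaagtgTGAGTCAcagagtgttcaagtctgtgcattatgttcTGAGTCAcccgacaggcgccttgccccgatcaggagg
Serpinb3a: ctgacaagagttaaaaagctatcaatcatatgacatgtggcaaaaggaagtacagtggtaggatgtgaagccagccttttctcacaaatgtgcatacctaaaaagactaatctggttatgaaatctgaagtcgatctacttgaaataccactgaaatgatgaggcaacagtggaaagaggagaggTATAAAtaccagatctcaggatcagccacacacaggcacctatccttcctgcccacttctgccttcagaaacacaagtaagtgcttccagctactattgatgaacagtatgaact
Serpinb9: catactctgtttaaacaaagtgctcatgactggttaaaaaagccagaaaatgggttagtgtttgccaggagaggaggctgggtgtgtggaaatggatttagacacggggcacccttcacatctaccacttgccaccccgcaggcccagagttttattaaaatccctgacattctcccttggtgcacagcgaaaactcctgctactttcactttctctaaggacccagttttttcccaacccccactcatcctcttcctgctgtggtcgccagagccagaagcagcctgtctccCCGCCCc
Serpine2: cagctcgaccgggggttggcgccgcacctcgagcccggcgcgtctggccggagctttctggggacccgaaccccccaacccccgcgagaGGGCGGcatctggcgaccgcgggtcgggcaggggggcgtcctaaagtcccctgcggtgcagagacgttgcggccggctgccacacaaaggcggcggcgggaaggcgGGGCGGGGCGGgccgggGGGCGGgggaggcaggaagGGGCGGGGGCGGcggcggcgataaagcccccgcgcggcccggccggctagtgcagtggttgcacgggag

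The 3 called genes shared none of the searched motifs. The Serpinb8 sequence held 2 AP-1 matches, a motif found in 5.20% of all 32851 promoters of this length. The promoter of Serpinb7, which was too low to be tested, also held this motif. In the Serpinb3a sequence the only match was a TATA box starting 65 bases before the transcript start. Those letters are in 13.6% of all promoters and in 11 of the 35 serpin promoters, including those of the untested Serpinb3b and Serpinb3d. They were also in promoters of Serpinb12, Serpinb1c, Serpinb6c and Serpina3c, which were tested and not called. Serpinb9 had a single match, a GC box near the end of the window (35.7% of promoters). The Serpine2 window held 6 GC box matches and 41 CpG dinucleotides, more than 96.5% of promoters, against 5 CpG in Serpinb8, 5 in Serpinb9 and 1 in Serpinb3a, where the median of all promoters is 7. Other uncalled serpins varied in CpG count: 0 in Serpinb6e, 3 in Serpinf1, 4 in Serpinc1, 15 in Serpini1 and 16 in Serpinh1. A low count was thus not particular to the called genes. A promoter was found for 30 of the 39 serpins. CCAAT letters were in 37.4% of all promoters and the homeobox core in 5.29%, and neither was in these 4 windows. A match is a string of letters, not a shown binding site.

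The library labels were first checked against the targeted gene. Uba3 (ENSMUSG00000030061, chromosome 6) stood at 10.03, 10.16 and 10.36 in the Uba3 cKO libraries, against 11.37, 11.46 and 11.34 in the control libraries, on the authors' normalized log2 scale. It fell by 1.21 (SE 0.10), to a level 2.31-fold lower (limma adjusted p = 2.07e-05), and the groups did not overlap. All 23 oocyte markers found in the table, such as Zp3 and Gdf9, were well enough expressed to be tested. The read depth of each library is unknown, because the table holds normalized values and no counts.

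Of the 39 serpins, 20 reached a linear value of 10 (3.32 on the log2 scale) in at least 3 of the 6 libraries and were tested. Of these 20 serpins, 3 rose in Uba3 cKO oocytes, none fell and 17 were not called. A gene was called at an adjusted p under 0.05 in limma, with the adjustment over all 17450 tested genes. The called share of 15% compares with 8.14% of all tested genes called in either direction, 5.64% higher and 2.5% lower. With 3 calls this share is an imprecise one, and no test set it against the other genes. The median log2 difference was -0.01 over the 20 serpins and -0.01 over all tested genes. No overlap between the groups was seen for 6 of the 20 serpins (30%), close to the 27.9% of all tested genes. The median and the share without overlap were thus near those of all tested genes, and the calls were of single members.

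**Figure D1:**
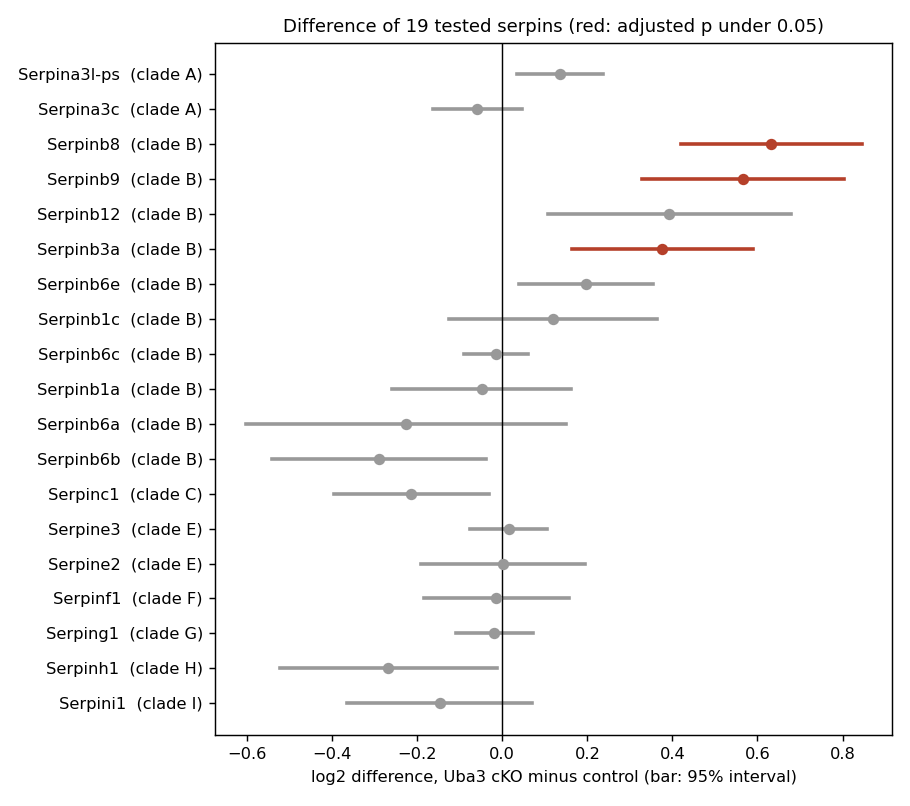
Difference of 19 tested serpins between Uba3 cKO and control oocytes on the log2 scale (horizontal axis), by clade (vertical axis), with its 95% interval from limma. The 3 red points, Serpinb8 at 0.63, Serpinb9 at 0.57 and Serpinb3a at 0.38, are the called members, and the grey points lie between -0.29 for Serpinb6b and 0.39 for Serpinb12.

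All 3 called serpins belong to clade B, the intracellular clade. It had 17 members, of which 10 were tested and 3 rose (30% of those tested, where 5.64% of all tested genes rose). The share rests on 3 genes and was not tested against the other genes. Serpinb8, whose human counterpart inhibits the proprotein convertase furin in vitro, had values of 8.62, 8.51 and 8.49 in the Uba3 cKO libraries, against 7.90, 7.98 and 7.84 in the controls. Every Uba3 cKO library was above every control library, and the spread within each group was small (SD 0.07 in Uba3 cKO and 0.07 in control, n = 3 each). Its log2 difference was 0.63 (SE 0.10, 95% interval 0.42 to 0.85), a 1.55-fold higher level, with a limma adjusted p of 0.00158. Furin itself was not called (log2 difference 0.07, SE 0.10, limma adjusted p = 0.735). Leaving out any 1 library kept the call, with an adjusted p of at most 0.0141.

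Serpinb9, an inhibitor of granzyme B that protects cells against the granules of cytotoxic lymphocytes, showed a rise of similar size. It stood at 9.10, 9.09 and 9.35 in Uba3 cKO libraries, against 8.67, 8.70 and 8.48 in control libraries. The groups did not overlap, and Uba3 cKO replicate 3 was the highest while control replicate 3 was the lowest. The log2 difference was 0.57 (SE 0.11, 95% interval 0.33 to 0.80), a 1.48-fold higher level (limma adjusted p = 0.00678). Its call held without any 1 library, but only just without control replicate 3 (adjusted p = 0.0484). The gene of granzyme B, Gzmb, was not analysed here.

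Serpinb3a, a mouse relative of the human squamous cell carcinoma antigens that inhibits both serine and cysteine proteases, rose less. Its values were 8.66, 8.59 and 8.69 in Uba3 cKO oocytes, against 8.23, 8.37 and 8.21 in control oocytes. All 3 Uba3 cKO libraries again lay above all controls. The log2 difference was 0.38 (SE 0.10), a 1.30-fold higher level, with a limma adjusted p of 0.0338. The call was lost on leaving out replicate 1 or replicate 3 of either group (largest adjusted p 0.14). Of the 50-base words in its transcripts, 15% also occur in transcripts of other genes, the largest part in Gm8080, so reads could have been divided differently between these copies. For Serpinb8 and Serpinb9 the share was 0.165% and 0.378%.

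Serpinb12, which in human inhibits trypsin-like proteases, was the most abundant clade B serpin and was not called. It had values of 10.80, 10.76 and 11.03 in Uba3 cKO libraries, against 10.26, 10.80 and 10.35 in controls. Control replicate 2 lay within the range of the Uba3 cKO libraries, and the other controls lay below it. The log2 difference was 0.39 (SE 0.13, limma adjusted p = 0.0897), as large as that of Serpinb3a but with a wider spread. Without control replicate 2 it was 0.56 and passed the threshold (adjusted p = 0.0132).

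The Serpinb6 genes, relatives of an intracellular inhibitor of trypsin-like proteases and cathepsin G, were not called. Serpinb6a, the most abundant of them, had values of 10.48, 10.68 and 10.22 in Uba3 cKO oocytes, against 11.11, 10.71 and 10.24 in controls. Its control libraries alone spanned most of the observed range, and the 95% interval of the difference ran from -0.60 to 0.15. Serpinb6b had a log2 difference of -0.29 (limma adjusted p = 0.155) and Serpinb6e one of 0.20 (adjusted p = 0.121). Serpinb6e passed the threshold without Uba3 cKO replicate 2 (adjusted p = 0.0388). Serpinb6c stood near the test minimum of 3.32, at 3.57 ± 0.03 in Uba3 cKO and 3.59 ± 0.01 in control (SD, n = 3 each). Exons of Serpinb6a overlap those of Nqo2, 1110046J04Rik and Ripk1 on the opposite strand, over 14.1%, 10.8% and 4.46% of its exon length. None of these partners was called, with log2 differences of 0.11, -0.04 and 0.06. The strand setting of the counting is not given in the sources used here.

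The Serpinb1 genes, relatives of an inhibitor of neutrophil elastase and related granule proteases, also stayed below the threshold. Serpinb1c averaged 8.34 ± 0.03 in Uba3 cKO and 8.23 ± 0.20 in control oocytes (SD, n = 3 each). Serpinb1a averaged 6.73 ± 0.10 in Uba3 cKO and 6.78 ± 0.12 in control oocytes (SD, n = 3 each). The 95% intervals of their log2 differences were -0.13 to 0.36 for Serpinb1c and -0.26 to 0.16 for Serpinb1a.

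**Figure D2:**
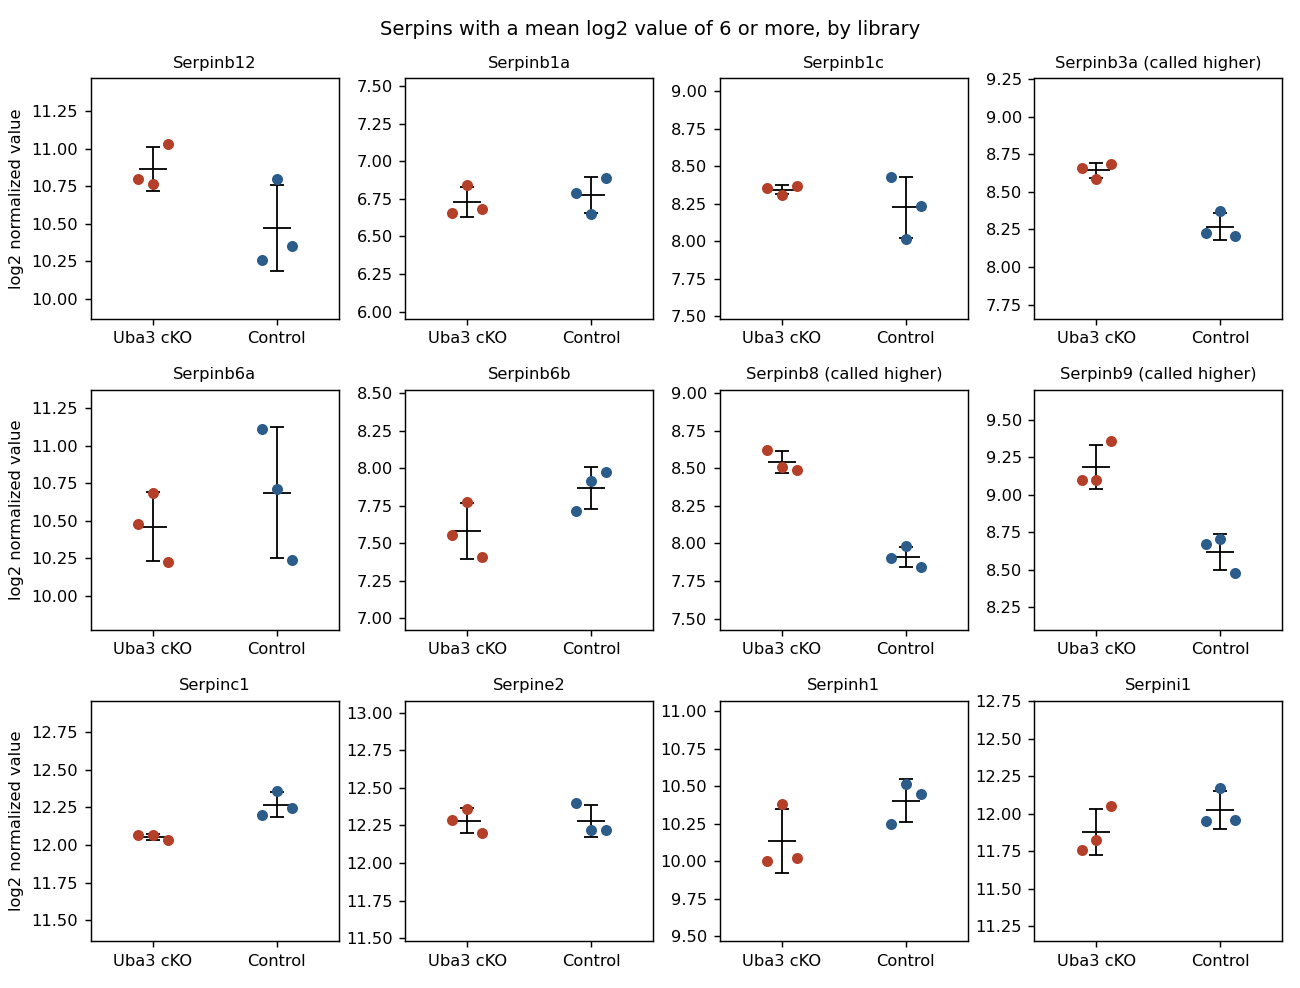
Normalized log2 values (vertical axis, each panel spanning the same range around its own middle) of the 12 serpins with a mean log2 value of 6 or more, in the 3 Uba3 cKO libraries (red, left) and the 3 control libraries (blue, right). Points are libraries, horizontal strokes are means and bars are SD. Serpinb8, Serpinb9 and Serpinb3a show red points that all lie above the blue ones, and Serpinc1 shows the opposite order.

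The genes of clade B sit in a pair of clusters, and expression was patchy within both. On chromosome 1 the cluster runs, among members in the table, in the order Serpinb5, Serpinb12, Serpinb3a, Serpinb3d, Serpinb3b, Serpinb7, Serpinb10 and Serpinb8. Serpinb12, Serpinb3a and Serpinb8 were tested, with differences from 0.38 to 0.63, and the 5 members beside and between them had means of at most 1.30 in either group. Past the Serpinb8 end the nearest tested protein-coding genes were Cdh7 and Cdh19, both cadherins, which also rose, by 0.42 and 0.55 (limma adjusted p = 0.0149 and 0.0160). Both of these calls were lost without Uba3 cKO replicate 3, control replicate 2 or control replicate 3. The next, Dsel, was not called (-0.06). On the other side Vps4b (0.22), Kdsr (0.20) and Bcl2 (-0.12) were not called.

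On chromosome 13 Serpinb9 was the only tested cluster gene that was called. On the side towards Serpinb1a its neighbours were the long non-coding RNA gene Gm47662, with a log2 difference of 0.32 (limma adjusted p = 0.0504), and then Serpinb6b at -0.29. On the other side its paralogue Serpinb9b stood at 2.67 in Uba3 cKO and 2.63 in control oocytes and was not tested, and the next tested gene, Gm6093, differed by -0.0024. The flanking protein-coding genes Wrnip1 (-0.28), Mylk4 (-0.02), D930007J09Rik (-0.004), Bphl (-0.08), Tubb2a (0.25) and Tubb2b (-0.05) were not called. Neighbours were chosen by position alone, after the serpin values were known.

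**Figure D3:**
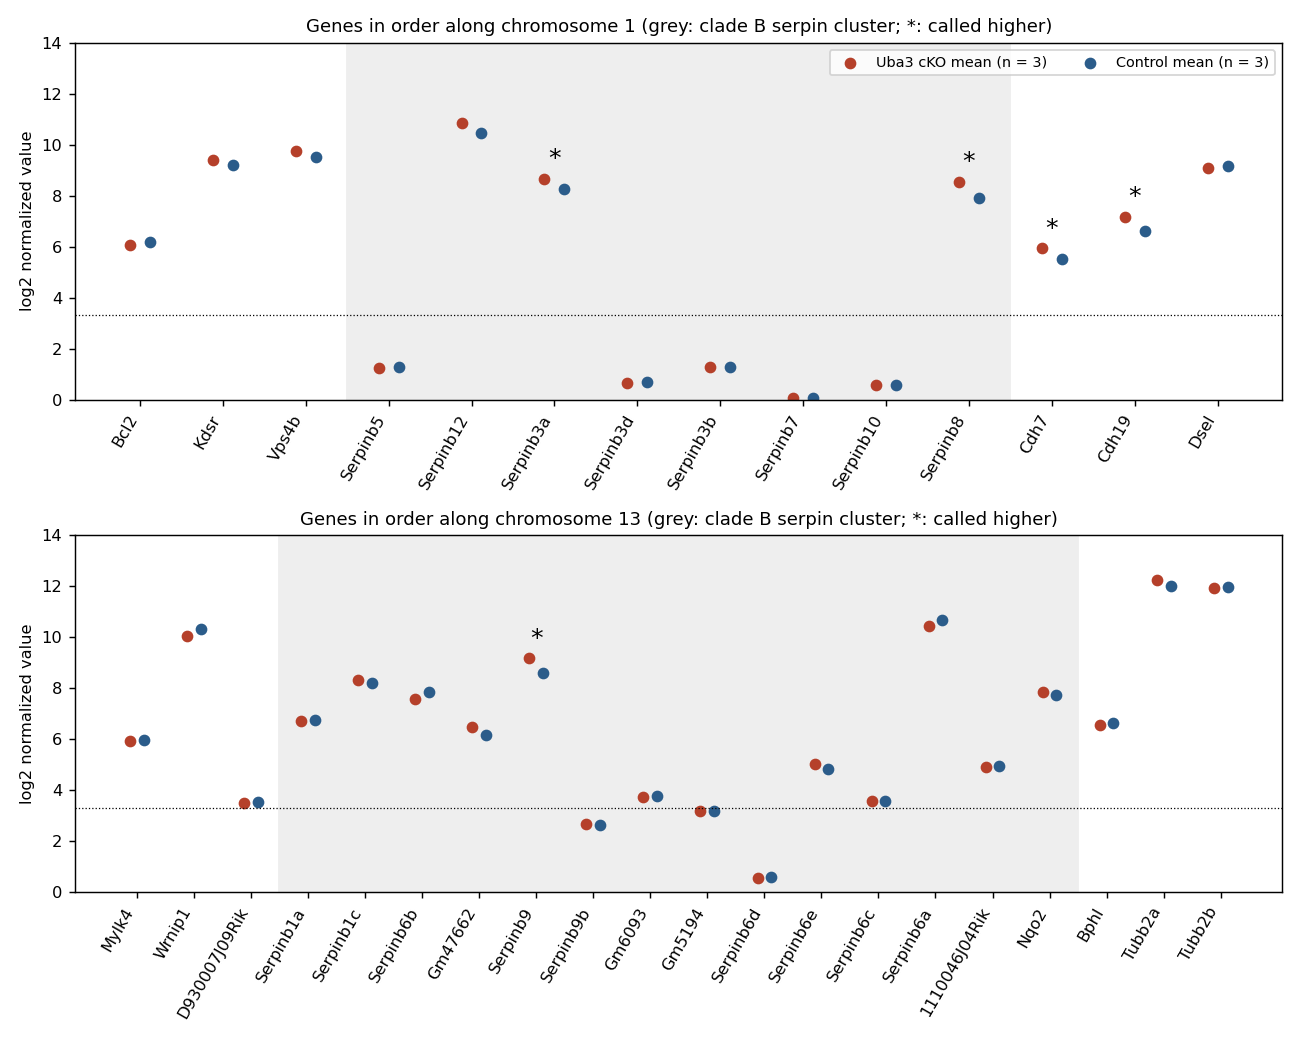
Mean normalized log2 value (vertical axis) of the genes in and beside the clade B serpin clusters of chromosomes 1 and 13, in their order along the chromosome (horizontal axis, not to scale), for Uba3 cKO (red) and control (blue) oocytes, n = 3 libraries each. The dotted line marks the test minimum of 3.32. Stars mark called genes, among them Serpinb3a, Serpinb8, Cdh7 and Cdh19 on chromosome 1 and Serpinb9 on chromosome 13, and abundant members stand beside members near 0.

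The most abundant serpins of the other clades were not called. Serpine2, which encodes protease nexin-1, an inhibitor of thrombin, urokinase and tissue-type plasminogen activator, had values of 12.29, 12.36 and 12.20 in Uba3 cKO oocytes, against 12.40, 12.22 and 12.22 in controls. The groups overlapped fully, and the log2 difference was 0.0026 with a 95% interval from -0.19 to 0.20. Its sign turned under other scalings. Serpini1, or neuroserpin, an inhibitor of tissue-type plasminogen activator in the nervous system, had values of 11.76, 11.83 and 12.05 in Uba3 cKO oocytes, against 11.95, 12.17 and 11.96 in controls. Its log2 difference was -0.15 (SE 0.10, limma adjusted p = 0.42), with overlapping groups.

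Serpinc1, antithrombin, is the main inhibitor of thrombin and factor Xa in plasma. It stood at 12.07, 12.06 and 12.03 in Uba3 cKO libraries, against 12.20, 12.36 and 12.24 in control libraries. The groups did not overlap, yet the log2 difference of -0.21 (SE 0.08, 95% interval -0.40 to -0.03) did not pass the threshold (limma adjusted p = 0.146). The value of Serpinc1 is uncertain, because Zbtb37, on the opposite strand, overlaps 34.4% of its exon length. Zbtb37 stood at 10.13 ± 0.07 in Uba3 cKO and 10.05 ± 0.04 in control oocytes (SD, n = 3 each). Depending on the counting settings, which are not given, reads from the shared exons could have been added to Serpinc1 or dropped in both groups.

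Serpinh1, the collagen chaperone of the endoplasmic reticulum, had values of 10.004, 10.38 and 10.02 in Uba3 cKO oocytes, against 10.24, 10.52 and 10.45 in controls. Uba3 cKO replicate 2 lay within the control range and the other 2 below it. The log2 difference was -0.27 (SE 0.12, limma adjusted p = 0.196). Serpinf1, or pigment epithelium-derived factor, a secreted serpin without inhibitor activity that restrains vessel growth, had values of 5.32, 5.44 and 5.29 in Uba3 cKO, against 5.52, 5.28 and 5.29 in control oocytes. The groups overlapped, and the difference was -0.01 (95% interval -0.18 to 0.16).

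A group of tested members lay just above the minimum, where differences are compressed if the authors' transform shrinks low values. Serping1, the C1 inhibitor of the complement and contact systems, had values of 3.95, 3.92 and 3.90 in Uba3 cKO, against 3.89, 3.98 and 3.96 in control oocytes, with no difference beyond the spread. The pseudogene Serpina3l-ps had 4.21, 4.29 and 4.15 in Uba3 cKO, against 4.11, 4.06 and 4.08 in control oocytes. Its groups did not overlap, but its log2 difference of 0.14 was not called (limma adjusted p = 0.101). Serpina3c (-0.06) and Serpine3 (0.01) were not called, and Serpine3 shares 24.8% of its exon length with Ints6 on the opposite strand, an abundant gene at 12.04 in Uba3 cKO and 12.07 in control oocytes.

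The other 19 members did not reach the minimum in any library. They were 11 of clade A, 7 of clade B and 1 of clade F. Clade A is the clade of plasma inhibitors and hormone carriers made mainly by the liver. Its untested members included Serpina1e, an alpha-1-antitrypsin gene, Serpina5, the protein C inhibitor, Serpina6 and Serpina7, the carriers of glucocorticoids and thyroid hormone, and Serpina10, an inhibitor of factor Xa. The other untested members of clade A were Serpina3g and Serpina3n, relatives of human alpha-1-antichymotrypsin, Serpina9, Serpina16 and the pseudogenes Serpina3e-ps and Serpina4-ps1. Those of clade B were Serpinb3b, Serpinb3d, Serpinb5 (maspin), Serpinb6d, Serpinb7, Serpinb9b and Serpinb10, and that of clade F was Serpinf2, the plasmin inhibitor alpha-2-antiplasmin. Their log2 values lay between 0.07 and 3.13 over all 6 libraries, and the highest and lowest library of a gene differed by at most 0.15. No difference could be read at these levels.

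Levels of different serpins were compared per kilobase of exon. On that scale 5 genes stood at the top: Serpinb12 at 9.54 in Uba3 cKO and 9.15 in control, Serpine2 at 9.23 in Uba3 cKO and 9.23 in control, Serpini1 at 9.01 in Uba3 cKO and 9.16 in control, Serpinc1 at 8.96 in Uba3 cKO and 9.17 in control, and Serpinh1 at 8.85 in Uba3 cKO and 9.11 in control, each on the log2 scale per kilobase. In controls the libraries of Serpinb12 ran from 8.94 to 9.48 per kilobase and overlapped those of the other 4 genes, so the order there is not resolved. In Uba3 cKO the lowest Serpinb12 library (9.44) lay above the highest library of Serpine2 (9.31), Serpini1 (9.18), Serpinc1 (8.97) and Serpinh1 (9.09). Below it the libraries of Serpine2 and Serpini1 overlapped, as did those of Serpini1, Serpinc1 and Serpinh1. The place of Serpinc1 is uncertain, because Zbtb37 on the opposite strand overlaps 34.4% of its exon length. The order also rests on the length used, which was that of all annotated exons of a gene together. It was 2.50 kb for Serpinb12, against 8.29 kb for Serpine2, 7.29 kb for Serpini1 and 8.55 kb for Serpinc1. Without division by length, Serpine2 (mean 12.28), Serpini1 (11.95) and Serpinc1 (12.16) stood above Serpinb12 (10.67). Which transcripts the oocytes make was not tested. Per kilobase, Serpinb6a followed at 8.03 in Uba3 cKO and 8.25 in control. Among the called genes, Serpinb3a reached 7.94 in Uba3 cKO and 7.56 in control, Serpinb9 reached 7.38 in Uba3 cKO and 6.81 in control, and Serpinb8 reached 6.28 in Uba3 cKO and 5.65 in control. The rise of Serpinb8 thus left it below Serpinb6b (6.40 in Uba3 cKO, 6.69 in control) in the means of both groups on the scale per kilobase.

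**Figure D4:**
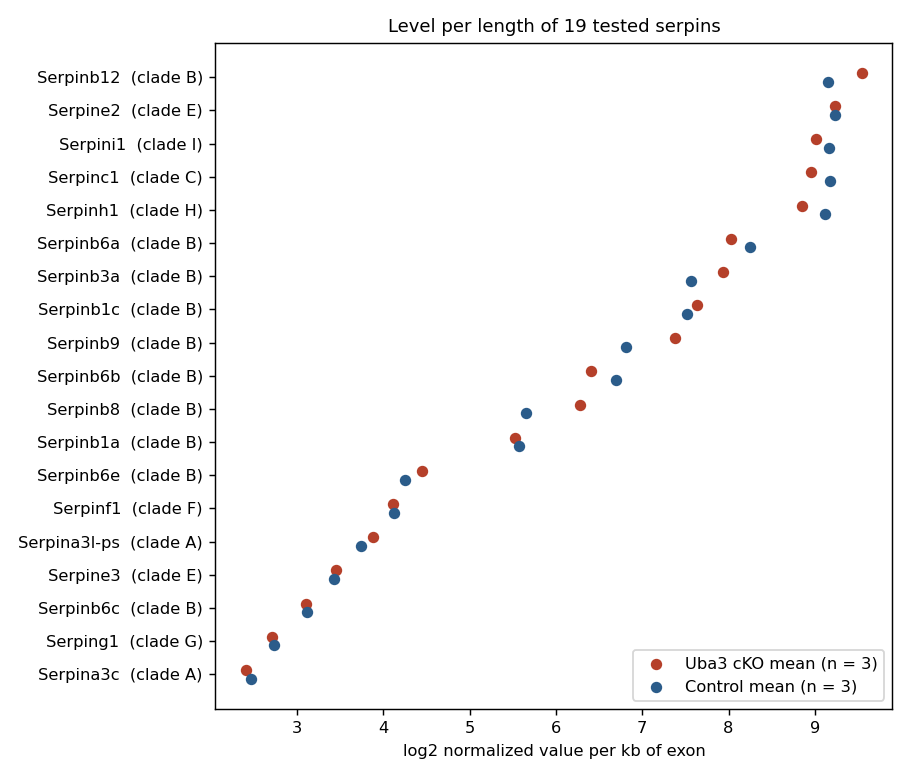
Mean normalized log2 value per kilobase of exon (horizontal axis) of 19 tested serpins, ordered by the mean over all 6 libraries, for Uba3 cKO (red) and control (blue) oocytes, n = 3 libraries each. Serpinb12, Serpine2, Serpini1, Serpinc1 and Serpinh1 lie together at the top, and Serpina3c is lowest of those drawn, at 2.41 in Uba3 cKO and 2.47 in control.

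Single proteases of kinds that serpins inhibit passed the test in both directions. The counts that follow are small, and over all tested genes 5.64% rose and 2.5% fell. Of 13 tested serine proteases of coagulation, fibrinolysis and complement, 3 rose and 1 fell, with a median log2 difference of -0.02. Plat, tissue-type plasminogen activator and a target of SERPINE2 and SERPINI1, was very abundant and stood at 16.10, 15.75 and 15.94 in Uba3 cKO oocytes, against 16.26, 16.60 and 16.43 in controls. Every Uba3 cKO library was below every control, and Plat fell by 0.50 (SE 0.10, limma adjusted p = 0.00579). Plg, which encodes the plasminogen that Plat activates, stood at 7.22, 6.71 and 7.13 in Uba3 cKO oocytes, against 6.38, 6.37 and 6.38 in controls, and rose by 0.64 (SE 0.12, limma adjusted p = 0.00473). Both calls held without any 1 library. Proc, protein C, rose by 0.38 and Cfi, complement factor I, by 0.29. Their calls ended without any 1 library except Uba3 cKO replicate 2, which left Plg as the only one of the 13 that rose.

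Among 17 tested membrane, secreted and granule serine proteases 1 rose, 2 fell and the median log2 difference was 0.0015. Htra1, a secreted protease of the extracellular matrix, rose by 0.71 (SE 0.11, limma adjusted p = 0.00116), without exception when 1 library was left out. Its relative Htra4 fell by 0.45 and Prss8, or prostasin, by 0.42. Both calls were lost without Uba3 cKO replicates 1 or 2 or control replicate 2, and that of Htra4 also without control replicate 3. Of 14 tested cysteine proteases of kinds that some serpins inhibit, Casp8, the initiator caspase of death receptors, rose by 0.45 (limma adjusted p = 0.00956) and Ctso, cathepsin O, fell by 0.32 (adjusted p = 0.0458), with a median of -0.07. The call of Casp8 ended without control replicate 3 (adjusted p = 0.0527), and that of Ctso without any of the 6 libraries.

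Other protease inhibitors did not move as a group. Of 25 tested, 2 rose and 1 fell, with a median log2 difference of -0.01. Xiap, an inhibitor of caspases, rose by 0.51 (limma adjusted p = 0.00627) and Spink10, a Kazal-type inhibitor, by 0.34 (adjusted p = 0.00753), both with or without any 1 library. Spint1, a Kunitz-type inhibitor of membrane serine proteases, fell by 0.34. Its call ended without any 1 library except control replicate 1.

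Of 32 tested cofactors and receptors of serpins 2 rose and 5 fell, with a median log2 difference of -0.07, where 5.64% of all tested genes rose and 2.5% fell. The 5 that fell became 0 without Uba3 cKO replicate 1 or 3, 1 without control replicate 3, 2 without control replicate 2 and 3 in a fit with no intensity trend. Lrp2, megalin, which takes up serpin complexes with proteases, rose by 0.62 (limma adjusted p = 0.00876), a call that ended without control replicate 3 (adjusted p = 0.0527). Lrpap1, the chaperone of receptors of that family, fell by 0.38, Lrp1b by 0.45 and S100a10, which binds plasminogen at the cell surface together with annexin A2, by 0.36. These 3 calls were lost without Uba3 cKO replicates 1 or 3. That of Lrpap1 also ended without Uba3 cKO replicate 2 or control replicate 3, that of Lrp1b without control replicate 2, and that of S100a10 without Uba3 cKO replicate 2, control replicate 2 or control replicate 3. Of 34 tested genes of collagen folding, the setting in which Serpinh1 works, Hspa5, the chaperone BiP, fell by 0.41 and Colgalt2, a collagen galactosyltransferase, rose by 0.36, with a median of -0.05. Both calls were lost without Uba3 cKO replicates 1 or 3 or control replicate 1, and that of Colgalt2 also without control replicate 3.

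Markers of other ovarian cells were measured beside the serpins, because several serpins are also made by follicle cells, vessels or blood cells. In bulk pools, fewer cells of a type and less RNA per cell cannot be told apart. The marker counts stand beside 5.64% of all tested genes that rose and 2.5% that fell. Of 19 tested theca, stroma and luteal markers 7 fell and none rose, with a median log2 difference of -0.39, and the summed linear level of all 21 in the table was 3426 to 4418 in Uba3 cKO and 4757 to 6788 in control libraries. The count that fell was 2 without Uba3 cKO replicate 3, control replicate 2 or control replicate 3, 4 without Uba3 cKO replicate 1 and 3 in a fit with no intensity trend. Col3a1 fell by 0.62 and Dcn by 0.51, both with or without any 1 library. Of 23 tested granulosa and cumulus markers 2 rose and 2 fell, with sums of 24352 to 30406 in Uba3 cKO and 27374 to 36329 in control libraries over 25 genes. The 2 higher calls became 0 without Uba3 cKO replicate 1 or control replicate 2 and 1 without any other library. The lower calls numbered 0 without control replicate 2 or with no intensity trend, and 5 once control replicate 1 was dropped. There were 3 such calls when Uba3 cKO replicate 2 was dropped, and 1 with a robust variance prior or without any of the 3 remaining libraries. Of 13 tested blood and immune markers none rose and 2 fell, with sums of 4122 to 4203 in Uba3 cKO and 3492 to 4276 in control libraries over 17 genes. The 2 calls became 1 without Uba3 cKO replicate 2 or control replicate 2 and 0 without any other library, and 1 with no filter, a pseudocount of 5 or no intensity trend. Of 10 tested endothelial markers only Tie1 was called, and it fell by 0.59, with sums of 4101 to 4833 in Uba3 cKO and 4090 to 4419 in control libraries over 12 genes. Below the test minimum lay Ptx3, Tnfaip6, Insl3, Tcf21, C1qa, Cd3e, Hba-a2, Hbb-bt, Cldn5 and Eng. The part that other cells play in any serpin value was not tested. Of 23 oocyte markers Dazl rose and Zp2 and Bmp15 fell, with a median of -0.13 and sums of 579988 to 657179 in Uba3 cKO and 653912 to 745717 in control libraries. Without control replicate 1, 7 of the 23 fell, as did 623 of all tested genes in that fit. The call of Zp2 ended without control replicate 3, that of Dazl without any 1 library except Uba3 cKO replicate 2 or control replicate 1, and that of Bmp15 without any 1 library except control replicate 3.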

How the data were processed

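RNA sequencing had been done on 3 Uba3 cKO and 3 control pools of oocytes, with PicoPure extraction and Illumina TruSeq libraries, per the labels' protocols. Per the submitters' processing notes, the tools were DESeq2, fastp, featureCounts and STAR and the build was GRCm39, with no versions or settings given. The deposited table holds log2 values that the authors normalized between libraries, from 0.0363 to 18.01. The scale was read from the values, and the transform is not named. If it shrinks low values, differences of weakly expressed genes are understated. Depth is unknown, so no counting interval is given.

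Symbols, exon lengths, gene order and overlaps came from GENCODE M21 (GRCm38). A symbol was found for 27660 of 28738 IDs (96.2%). Genes with a linear value of 10 or more in at least 3 of 6 libraries were kept (17450 kept, 11288 dropped) and compared, Uba3 cKO minus control, by limma (version 3.58.1, R version 4.3.3) using an intensity trend and Benjamini-Hochberg adjustment. Tested on data simulated for this comparison over 17450 genes, the fit found 14% of genes with a simulated log2 change of 0.3, 86% of those with 0.6, and 98% of those with 1 or 1.5, and 5.73% of its 157 calls were false. The real data gave 1421 calls, and the simulated noise was drawn separately for each gene, without deviations shared by a whole library. These rates therefore need not hold for the real data.

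Every serpin in the table was named, except 1 tested member that was not called, which is counted but not reported here. Values by library are given for called serpins, for those with groups that do not overlap at an unadjusted p under 0.05, for the most abundant of each clade and for the 5 most abundant, and up to 4 called genes are named per other list. The members and lists were chosen with earlier results of these data known. Alternatives covered the filter, pseudocount, scaling, variance model, threshold, a replicate block and leaving out each library.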

Additional observations from a re-analysis of the deposited data

How the results depend on the processing

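Serpinb8 and Serpinb9 were called under every alternative run, with adjusted p of at most 0.0141 and 0.0484. Serpinb3a was not called with a replicate block (adjusted p = 0.0594) or without any of 4 libraries. The number of serpins that rose was 2 with the replicate block, 2 to 4 when 1 library was left out, 4 at an adjusted p under 0.1 and 3 under every other setting, and none fell in any. The count of all genes called was 2176 at an adjusted p under 0.1, of which 790 were lower. When 1 library was left out it ran from 618 to 1637, with 482 to 1014 higher and 136 to 623 lower. The cause was not tested. With the replicate block 1258 genes were called. Same-numbered libraries did not deviate together (correlations -0.09, -0.20 and -0.05), so the numbers do not show a pairing. The block gave 3 lower calls in place of 5 among cofactors and receptors, 1 in place of 2 among blood and immune markers and among oocyte markers, and 4 in place of 2 among granulosa and cumulus markers. Among the other named genes the block ended the calls of Bmp15, Colgalt2, Ctso, Lrpap1, Proc, S100a10 and Spint1. Quantile normalization ended those of Bmp15, Colgalt2, Proc and Zp2, the fit with no intensity trend those of Bmp15, Dazl, Hspa5 and Prss8, no filter those of Colgalt2 and Spint1, a pseudocount of 5 those of Bmp15 and Ctso, median scaling those of Bmp15 and Dazl, and the stricter filter and the robust variance prior that of Bmp15. Uncalled members near 0 changed sign. The log2 difference of Serpine2 was -0.0063 under median scaling and -0.0198 under quantile normalization, and -0.0367 to 0.0632 when 1 library was left out. The same range was -0.111 to 0.0083 for Serpinb1a, -0.0267 to 0.0029 for Serpinb6c, -0.0111 to 0.034 for Serpine3, -0.0604 to 0.0651 for Serpinf1 and -0.0462 to 0.0027 for Serping1. Low values and unknown depth limit what can be read for the 19 untested serpins.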
